A study of Homo sapiens with 4 samples.

Results

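The 10 genes described here are 3 Notch receptors (NOTCH1, NOTCH2 and NOTCH3), 5 ligands (DLL1, DLL3, DLL4, JAG1 and JAG2) and 2 targets (HES1 and HEY1), taken by symbol from a deposited table of 16376 genes. All 10 had a row. Expression was measured by sequencing polyadenylated RNA from LASCPC-01, an established human cell line of neuroendocrine prostate cancer derived from benign prostate epithelium into which N-Myc and activated AKT1 were introduced. The 2 PBS libraries and the 2 libraries from cells given ketotifen, an H1 antihistamine, are all labelled day 3 and genotype WT. No dose is given in the labels. The comparison asks which transcripts differ in cells given the drug, which the series title proposes for this cancer.

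Notch receptors are cut at the membrane when a DSL-family ligand on a neighbouring cell binds them, and the freed intracellular part joins the DNA-binding protein RBPJ to switch on genes such as HES1 and HEY1. HES1 and HEY1 encode repressors that act on proneural genes. DLL3 differs from the other ligands in that it is largely kept inside the cell and blocks Notch within the same cell. Because it reaches the surface of neuroendocrine tumour cells, it is a target of antibody and T-cell based drugs.

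The 4 libraries held 31313357 to 34979608 reads recovered from the steps of the FPKM values (fragments per kilobase of gene and of library size). Libraries carry the letters A and B within a group. The 2 PBS libraries stood farther from each other than the 2 ketotifen libraries did. The mean chi-square per gene was 10.5 within PBS and 4.75 within ketotifen, where read sampling alone gives about 1. The labels do not state that the libraries are separate cultures, so p-values measure a spread that may be technical. Of 8 neuroendocrine markers 5 averaged 1 FPKM or more. Among these INSM1, NCAM1 and UCHL1 were well above that level, ENO2 had 1.60 to 3.10 FPKM, and the other 3 markers, NEUROD1, SYP and CHGA, stayed below 0.60 FPKM. Of the other cell types, 0 of 5 endothelial and 0 of 5 listed leukocyte markers, 1 of 6 fibroblast markers (COL1A1) and 5 of 8 luminal prostate markers reached a mean of 1 FPKM.

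The promoter just upstream of the start site is shown for 3 genes of the HES family, because 2 share a pair of motifs and 1 does not. The stretches are the 150 bases before the RefSeq start (GRCh38.p14) of HES1, a low member of the family here, and of HES4 and HES6, 2 abundant relatives outside the 10 genes. Capitals mark matches to GTGNGAA, a core of the RBPJ binding motif, on either strand.
HES1 (chr3:194135998-194136147, plus strand): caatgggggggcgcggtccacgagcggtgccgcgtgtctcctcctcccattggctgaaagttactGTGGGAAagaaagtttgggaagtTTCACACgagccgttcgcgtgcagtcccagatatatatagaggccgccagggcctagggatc
HES4 (chr1:1000098-1000247, minus strand): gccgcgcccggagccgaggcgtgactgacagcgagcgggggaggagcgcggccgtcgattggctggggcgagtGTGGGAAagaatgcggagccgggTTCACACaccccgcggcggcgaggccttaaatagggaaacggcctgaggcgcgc
HES6 (chr2:238240039-238240188, minus strand): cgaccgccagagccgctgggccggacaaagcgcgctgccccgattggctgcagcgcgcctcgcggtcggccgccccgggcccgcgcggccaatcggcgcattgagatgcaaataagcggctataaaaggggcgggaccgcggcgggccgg
In HES1 and in HES4 the 2 matches face each other with 16 bases between them, at -85 to -56 and -77 to -48 from the start. Such a facing pair, with at most 20 bases between, was found in 26 of 35116 promoter windows of 300 bases (250 before and 50 after the start), or 0.0740%. At least 1 match was in 13.8% of them and at least 2 were in 1.26%. HES6 had no match in its window. HES1 and HES4 are among the 26 and are shown because of the pair, so these shares do not test them. Promoters of 7 of the 10 genes were in the table, and of these HES1 alone held a match. Those of DLL1, DLL3 and HEY1 were not used here. A match is a string of letters and not a measured binding site, and no match says nothing about the factor.

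DLL3 and JAG2 were the most abundant of the 10 genes, and the receptor NOTCH1 came next. Mean FPKM over the 4 libraries was 195.7 for DLL3, 129.7 for JAG2, 55.8 for NOTCH1, 28.2 for DLL1 and 16.8 for DLL4. It was 4.19 for NOTCH2, 3.37 for JAG1, 1.08 for HES1, 0.713 for HEY1 and 0.159 for NOTCH3. Each gene's lowest library lay above the highest library of the next gene in this order, except that HES1 (0.526 to 1.33 FPKM) and HEY1 (0.429 to 0.985 FPKM) overlapped. DLL3 ranked 251 and JAG2 418 among the 16376 genes by mean FPKM, ahead of 98.5% and 97.4% of them.

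**Figure D1:**
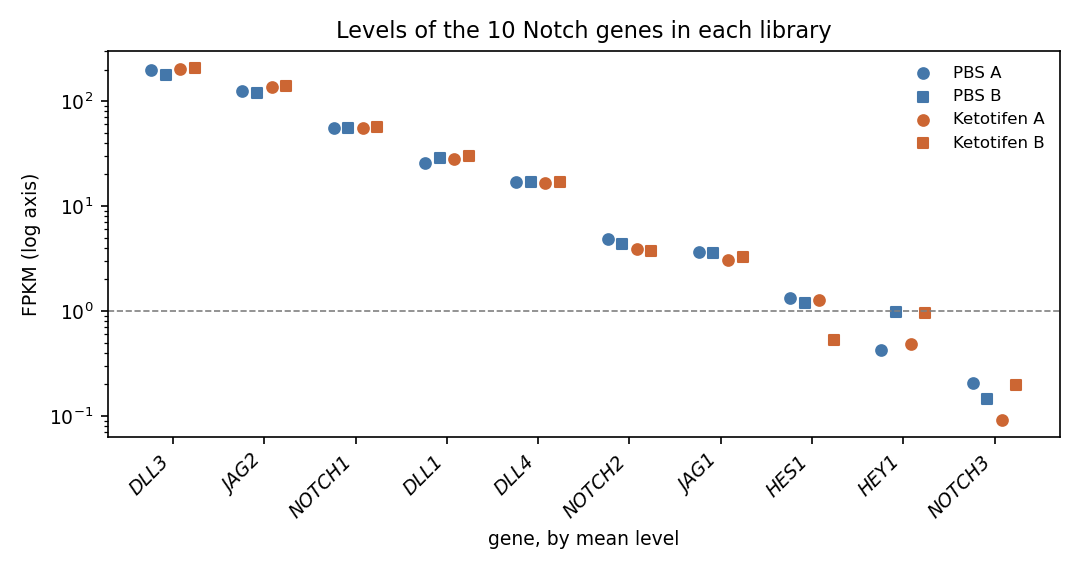
FPKM (log axis) of the 10 genes in each of the 4 libraries, in order of mean level; circles are libraries A and squares libraries B, blue for PBS and orange for ketotifen, and the dashed line is 1 FPKM. DLL3 has 177 to 205 FPKM, NOTCH3 stays at or below 0.205 FPKM, and the values of HES1 and HEY1 overlap.

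None of the 10 genes passed the main test of ketotifen against PBS. In bulk RNA, fewer cells of a kind and less RNA per cell cannot be told apart. That test was limma on log2(FPKM + 1), restricted to genes averaging 1 FPKM or more, at an adjusted p under 0.05. It took in 8 of the 10, and HEY1 and NOTCH3 lay below its minimum. With it 0 of the 8 were called, where 0.123% of all 10586 tested genes were (1 gene, or 0.00945%, higher and 12, or 0.113%, lower). At an unadjusted p under 0.05 there were 2 of 8, NOTCH2 and JAG2, against 20.4% of all tested genes. Voom on the recovered reads, scaled by median ratios, called 1 of 8, JAG2, as higher. It called 393 of all tested genes higher (3.71%) and 239 lower (2.26%), 5.97% in all, and at an unadjusted p it had 3 of 8 against 23% of the table. Scaled by total reads instead, voom called 355 genes higher (3.35%) and 377 lower (3.56%), and NOTCH2 joined JAG2, as lower. The 8 tested genes had 4 positive and 4 negative changes, with a median of 0.0010 against -0.018 for all tested genes. The ketotifen libraries lay above both PBS libraries in 2 of 8 (DLL3 and JAG2) and below both in 3 of 8 (NOTCH2, DLL4 and JAG1). Over all tested genes these shares were 23.2% and 31.2%, or 54.4% in both directions.

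Among the receptors, NOTCH1 (chromosome 9, 136494433 to 136546048 in GRCh38.p14) made up nearly all of the RNA. It had 55.8 and 55.0 FPKM in PBS libraries A and B, and 55.5 and 57.2 FPKM in ketotifen libraries A and B. The groups overlapped, and the change on the log2(FPKM + 1) scale was 0.02 ± 0.05 (SE), with a 95% interval of -0.09 to 0.14 (limma adjusted p = 0.820, with -0.03 when library sums were made equal). NOTCH2 (chromosome 1, 119911553 to 120069662) had 4.81 and 4.37 FPKM with PBS and 3.86 and 3.72 FPKM with ketotifen. Both ketotifen libraries were lower, by 17.4% in the mean, and PBS library B lay nearer to them. The log2 change was -0.22 ± 0.08 (adjusted p = 0.184 in limma, 0.0619 in voom, and 0.0364 in voom scaled by total reads). Over all alternatives the adjusted p of NOTCH2 ranged from 0.0364 to 0.507. Near-identical NOTCH2NL copies lie on the same chromosome, and NOTCH2NLA, NOTCH2NLB and NOTCH2NLC were listed at no more than 0.168 FPKM, so how reads were divided between them and NOTCH2 is uncertain. NOTCH3 (chromosome 19, 15159038 to 15200995) rested on 58 and 43 reads with PBS and 29 and 57 with ketotifen, or 0.205, 0.144, 0.0918 and 0.196 FPKM. The values overlapped, as did those of NOTCH4, the remaining receptor, which had 8 to 21 reads per library. NOTCH1 accounted for 91.6% and 92.3% of the summed FPKM of the 4 receptors with PBS and for 93.3% and 93.4% with ketotifen.

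Ligand RNA was mostly DLL3 and JAG2. DLL3 (chromosome 19, 39498947 to 39508469) had 198.5 and 177 FPKM in PBS libraries A and B and 202 and 205 FPKM in ketotifen libraries A and B. The low value was PBS library B, and PBS library A lay close to both ketotifen libraries. The mean went from 188 ± 15.0 to 204 ± 2.51 FPKM (SD, n = 2), with a log2 change of 0.12 ± 0.06 and an interval of -0.03 to 0.26 (adjusted p = 0.339 in limma, 0.149 in voom). Without PBS library A the change was 0.20 (limma adjusted p = 0.00483), in a fit that called 1061 of the 10586 genes higher and 875 lower. Such a fit has 1 PBS library, which is assumed to vary like the ketotifen pair, the closer pair of these data, so its p-values leave out the spread between PBS libraries. Without PBS library B it was 0.04. The adjusted p ranged from 0.00483 to 0.785 over the alternatives.

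JAG2 (chromosome 14, 105140995 to 105168776), a Jagged-type ligand, was the one gene of the 10 called higher by voom under both scalings. It had 123.6 and 119.6 FPKM with PBS and 136 and 139 FPKM with ketotifen, from 23463, 23999, 28901 and 27160 reads. Both ketotifen libraries lay above both PBS libraries, and the gap between the groups exceeded the gaps within them. The mean was 122 ± 2.85 with PBS and 138 ± 2.07 FPKM with ketotifen (SD, n = 2), higher by 13.4%. The log2 change was 0.18 ± 0.05 with a 95% interval of 0.06 to 0.30 (adjusted p = 0.140 in limma, 0.0187 in voom). It was positive under all alternatives, from 0.12 after quantile normalization to 0.21 after median ratio scaling, with adjusted p from 0.00612 (without PBS library A) to 0.511.

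JAG1 (chromosome 20, 10637684 to 10673999), the other Jagged ligand, went the opposite way in its values. It had 3.64 and 3.55 FPKM with PBS and 3.06 and 3.24 FPKM with ketotifen, and both ketotifen libraries were lower. The log2 change of JAG1 was -0.15 ± 0.08 (adjusted p = 0.317 in limma, 0.337 in voom). Neither tool called it. The ratio of JAG2 to JAG1 was 34.0 and 33.7 under PBS and 44.5 and 43.1 under ketotifen. With 2 libraries against 2, an exact permutation test of a single ratio cannot reach 0.05, so none was made.

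DLL1 (chromosome 6, 170282206 to 170291078) and DLL4 (chromosome 15, 40929340 to 40939073), both activating Delta-like ligands, were at intermediate levels. DLL1 had 25.9 and 28.6 FPKM with PBS and 28.2 and 30.2 FPKM with ketotifen, and the groups overlapped (log2 change 0.10 ± 0.07, limma adjusted p = 0.442). Its first bases overlap FAM120B on the other strand, and reads of the 2 genes cannot be told apart without knowing whether counting used the strand. DLL4 was the steadiest ligand, with 16.91 and 16.91 FPKM under PBS and 16.5 and 16.8 FPKM under ketotifen (log2 change -0.02 ± 0.06, interval -0.15 to 0.11, limma adjusted p = 0.855; 0.0042 after median ratio scaling). DLL3 was 53.9% and 51.3% of the summed FPKM of the 5 ligands with PBS and 52.3% and 52.0% with ketotifen. JAG2 was 33.5% and 34.6% of it with PBS and 35.4% and 35.3% with ketotifen. Ligand RNA in total stood at 6.06 and 5.81 times that of the receptors under PBS and at 6.49 and 6.46 times under ketotifen.

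The targets HES1 and HEY1 were low, and their groups overlapped. HES1 (chromosome 3, 194136148 to 194138732) had 69 and 65 reads with PBS and 74 and 28 with ketotifen, or 1.33, 1.19, 1.28 and 0.526 FPKM. Ketotifen library B stood alone. Its exact 95% counting interval of 0.350 to 0.761 FPKM did not reach those of the other 3 libraries, which together spanned 0.916 to 1.69 FPKM; these intervals cover counting error only. The log2 change of HES1 was -0.28 ± 0.17 (limma adjusted p = 0.397), and 0.01 without ketotifen library B. HEY1 had 35 and 85 reads with PBS and 44 and 80 with ketotifen, or 0.429, 0.985, 0.483 and 0.955 FPKM. In both groups library B was well above library A, and the groups overlapped throughout. HEY1 and NOTCH3 were tested only with the filter removed, where neither passed (limma adjusted p = 1 and 0.786).

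**Figure D2:**
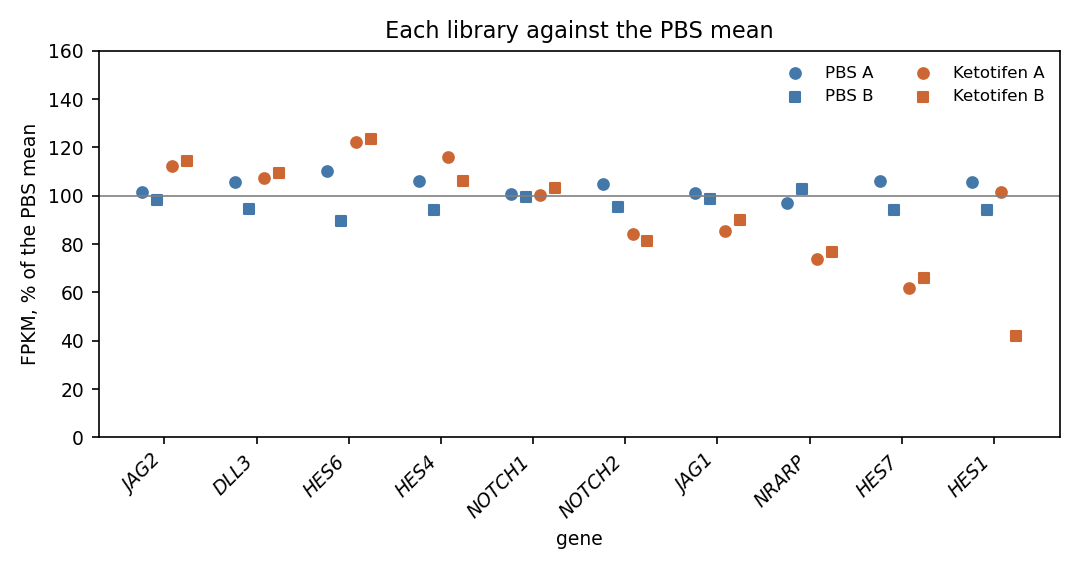
FPKM of each library as a percent of the PBS mean of the same gene, for 10 genes of the pathway (PBS blue, ketotifen orange; circles libraries A, squares libraries B). The ketotifen libraries lie above both PBS libraries in JAG2, DLL3, HES6 and HES4 and below both in NOTCH2, JAG1, NRARP and HES7. Over all tested genes 23.2% lay above and 31.2% below in this way. HES4 was nearly level, with 147.6 FPKM in ketotifen library B and 147.1 FPKM in PBS library A. HES1 is low in ketotifen library B only.

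Other genes of the HES and HEY family and NRARP, a short ankyrin-repeat protein that Notch induces and that limits its nuclear complex, were read from a list of 10 that includes HES1 and HEY1. HES4 and HES6 were as abundant as the main ligands. HES6 had 205 and 167 FPKM with PBS and 227 and 229.5 FPKM with ketotifen, and it is known as a relative that opposes HES1 and favours neuronal differentiation. HES4 had 147 and 131 FPKM with PBS and 161 and 148 FPKM with ketotifen. HES4 was 110.0 to 126.0 times as abundant as HES1 in 3 libraries and 280.3 times in ketotifen library B, where HES1 had 28 reads. Both promoters carry the facing motif pair shown above. HES2 had a mean of 5.41 FPKM with PBS, and HES5, HEY2 and HEYL stayed below 0.18 FPKM in every library.

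Of the 6 members of this list tested, limma called 0, where it called 0.123% of all tested genes, and 3 had an unadjusted p under 0.05, against 20.4%. Voom called 1 higher, HES6, and 1 lower, NRARP, beside 3.71% and 2.26% of all tested genes. NRARP had 15.0 and 15.9 FPKM with PBS and 11.4 and 11.8 FPKM with ketotifen, from 651, 729, 551 and 527 reads. Both ketotifen libraries were lower, with a difference of -24.9% in the means, and each group's libraries lay close together. Its log2 change was -0.38 ± 0.06 with an interval of -0.53 to -0.24 (adjusted p = 0.0860 in limma, 0.0409 in voom). NRARP passed in limma with a minimum mean of 5 FPKM (adjusted p = 0.0468), and when either PBS library was left out (0.000236 without A, 0.00883 without B). The fits without a PBS library take their spread from the ketotifen pair alone, and they called 1061 genes higher and 875 lower without A, and 254 and 167 without B. Without ketotifen library A or B the adjusted p of NRARP was 0.279 and 0.168. The highest of its adjusted p-values was 0.318. HES7, an oscillating repressor of somite formation, had 2.64 and 2.34 FPKM with PBS and 1.54 and 1.64 FPKM with ketotifen (log2 change -0.43 ± 0.09, adjusted p = 0.1003 in limma, 0.0584 in voom, and 0.0457 in voom scaled by total reads). In the same fits, with the spread of the ketotifen pair alone, limma gave HES7 an adjusted p of 0.0340 without PBS library A and 0.0176 without B. It was 0.323 and 0.228 without ketotifen library A or B. HES6 differed by 0.30 ± 0.09 (adjusted p = 0.148 in limma, 0.0164 in voom), by 0.45 without PBS library A (limma adjusted p = 1.40e-07, again with the spread of the ketotifen pair alone) and by 0.15 without PBS library B (limma adjusted p = 0.0644). With the column letters as a replicate block, limma called HES6 higher (adjusted p = 0.0327), and NRARP (0.00975) and HES7 (0.0301) lower. That fit called 406 of 10586 genes higher and 231 lower, and nothing shows that the letters pair the libraries. Voom scaled by total reads had adjusted p-values of 0.0118 for HES6 and 0.0281 for NRARP. Over all alternatives the adjusted p of HES6 went up to 0.416. The 2 PBS libraries of HES6 themselves differed by -0.30 (B minus A) on the log2 scale, as much as the groups, whereas its ketotifen libraries differed by 0.02. The PBS libraries of NRARP differed by 0.08.

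**Figure D3:**
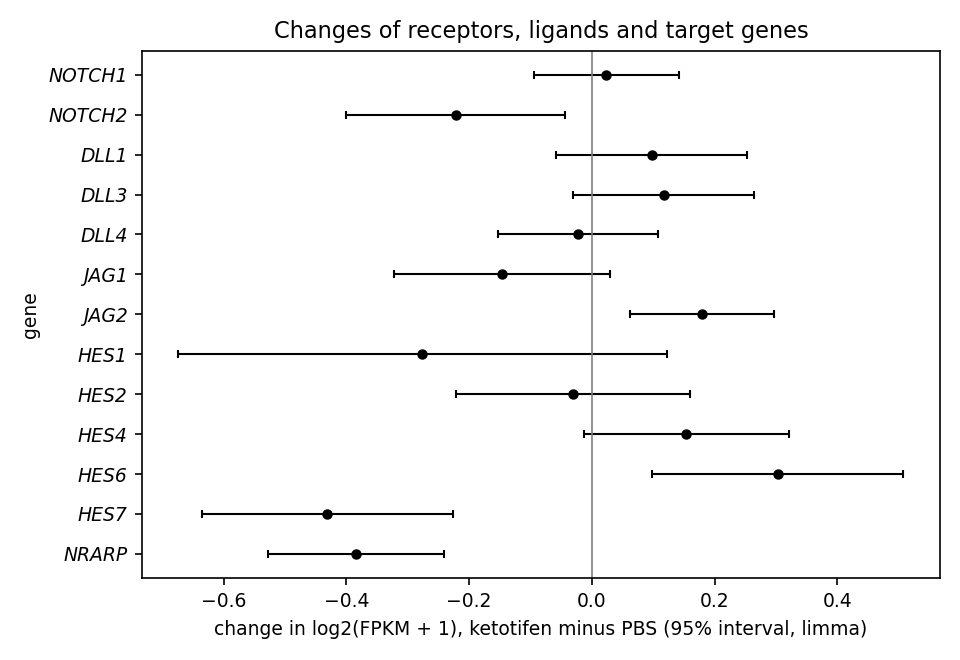
Change in log2(FPKM + 1), ketotifen minus PBS, with its 95% interval from limma for the 13 tested receptors, ligands, HES family genes and NRARP. The vertical line is no change. The intervals of JAG2 (0.06 to 0.30) and HES6 lie above 0 and those of NOTCH2, HES7 and NRARP (-0.53 to -0.24) below it, before adjustment over all genes.

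The rest of the pathway was read from lists by role, 59 genes outside the 10 named above, of which 58 had a row and 45 were tested. Limma called 0 of the 45, with 10 at an unadjusted p under 0.05, a share near the 20.4% of all tested genes. Voom called 1 higher (HES6) and 4 lower (among them NRARP, EP300 and SPEN), that is 1 of 45 and 4 of 45 beside 3.71% and 2.26% of all tested genes. The median change of the 45 was -0.06, against -0.018 for all tested genes.

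Genes of the nuclear complex, RBPJ and its partners, had lower mean levels with ketotifen. All 8 tested members had negative changes, with a median of -0.11, where 5895 of the 10586 tested genes were negative, and limma called 0 and voom 1 of the 8 lower, beside 2.26% of all tested genes with voom. That gene was EP300, a histone acetyltransferase recruited by the Notch complex. EP300 had 18.6 and 21.3 FPKM with PBS and 16.4 and 16.6 FPKM with ketotifen (adjusted p = 0.141 in limma, 0.0254 in voom, and 0.0136 in voom scaled by total reads). MAML2, a Mastermind coactivator, had 2.93 and 3.21 FPKM against 2.43 and 2.38 FPKM (adjusted p = 0.160 in limma, 0.105 in voom). RBPJ itself had 18.4 and 18.7 FPKM against 17.4 and 17.1 FPKM (limma adjusted p = 0.368). The PBS libraries differed from each other in these genes too, with a median of 0.17 (B minus A), so PBS library B was the one farther from ketotifen.

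Of 8 tested corepressors, which hold RBPJ target genes off when Notch is silent, limma called 0 and voom 2 lower, beside 2.26% of all tested genes. In this list 3 genes had positive changes, as did 4691 of all 10586. SPEN, one of the 2 called by voom, had 19.6 and 21.2 FPKM with PBS and 17.2 and 17.3 FPKM with ketotifen. Its adjusted p was 0.124 in limma, 0.0204 in voom, and 0.0111 in voom scaled by total reads. Between the PBS libraries the median difference of this list was 0.11 (B minus A). Of 5 tested genes of receptor turnover all had negative changes (median -0.12). Over all 10586 tested genes 5895 were negative and the median was -0.018. Limma and voom scaled by median ratios called 0 of the 5, where they called 0.113% and 2.26% of all tested genes lower. NUMB, an endocytic inhibitor of Notch, had 26.2 and 29.9 FPKM against 23.2 and 24.3 FPKM (adjusted p = 0.159 in limma, 0.0650 in voom, and 0.0398 in voom scaled by total reads). NUMBL, its relative, had 6.71 and 7.197 FPKM against 6.22 and 6.33 FPKM (limma adjusted p = 0.334). The median difference between the PBS libraries was 0.13 here. With the column letters A and B as a replicate block, limma called EP300 (adjusted p = 0.0443) and NUMB (0.0475) lower, and SPEN had 0.0505. That fit called 231 of 10586 genes lower. The part of PBS library B in these results was not tested beyond leaving it out. Without it limma called none of EP300, SPEN and NUMB, and without PBS library A it called all 3 lower (adjusted p from 0.000911 for EP300 to 0.00526 for SPEN), among 875 of 10586 genes called lower with the spread of the ketotifen pair alone.

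In receptor processing neither tool called a gene with all 4 libraries, where limma called 0.123% and voom 5.97% of all tested genes. The 9 tested genes of receptor cleavage, furin, the ADAM proteases and the subunits of gamma-secretase, had a median of -0.03. PSENEN, the smallest gamma-secretase subunit, had 10.2 and 6.89 FPKM with PBS and 11.1 and 10.9 FPKM with ketotifen (limma adjusted p = 0.215), and PBS library B was the low one. Without PBS library A, where that low library is the whole PBS group and the spread is that of the ketotifen pair, limma called it higher (adjusted p = 4.48e-06), as it did MFNG (0.0301), among 1061 genes called higher. PSENEN overlaps U2AF1L4 on the other strand, and without knowing the strand setting their reads cannot be told apart. APH1A, another subunit, had 44.7 and 43.4 FPKM against 49.2 and 48.3 FPKM (adjusted p = 0.194 in limma, 0.0937 in voom). APH1A overlaps C1orf54 on the other strand, and the same limit holds for its reads. Among the 5 glycosylation genes 4 had positive changes (median 0.09). Over all 10586 tested genes 4691 were positive and the median was -0.018. The fringe enzyme MFNG, which modifies how receptors read Delta and Jagged ligands, was at 107 to 125 FPKM over the libraries with overlapping groups (limma adjusted p = 0.498), and POFUT1, which adds the fucose that fringe extends, at 9.80 to 11.5 FPKM. Of the 4 ligases that ubiquitinate ligands, MIB2 had 19.5 and 19.6 FPKM with PBS and 21.2 and 21.7 FPKM with ketotifen (limma adjusted p = 0.251) and NEURL1B 5.31 and 5.11 against 4.89 and 4.30 FPKM (limma adjusted p = 0.320).

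**Figure D4:**
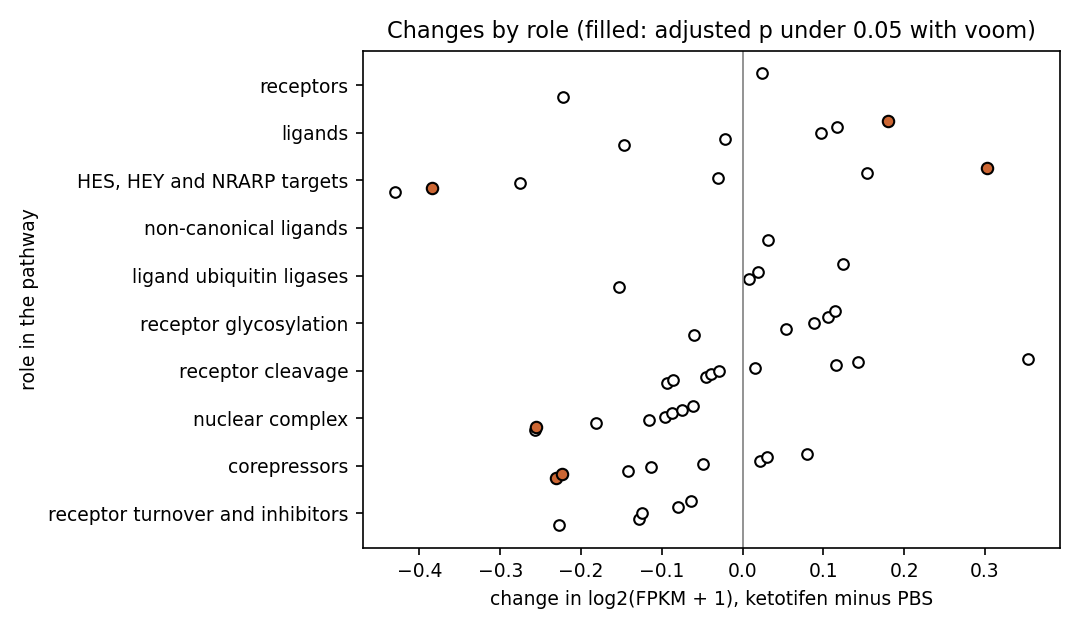
Change in log2(FPKM + 1), ketotifen minus PBS, of every tested gene of each role in the pathway; each point is 1 gene and points filled in orange had an adjusted p under 0.05 with voom scaled by median ratios. All 8 nuclear complex genes and all 5 turnover genes lie below 0, where 5895 of all 10586 tested genes do. The ligands lie on both sides, as do the genes of the HES family with NRARP.

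Among the 3 genes whose pattern over the 4 libraries was nearest to that of DLL3 were POLR2E and MED17, at Euclidean distances of 0.0096 and 0.012 between centred log2(FPKM + 1) values. With 4 libraries such likeness is common, and 146 genes lay within 0.05 of DLL3.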

How the data were processed

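Per the labels' protocols, TRIzol RNA was made into stranded mRNA libraries and sequenced in pairs. The authors deposited FPKM values per gene and library. Tools named in the submitters' processing notes are fastp, HISAT2 and HTSeq, with GRCh38. Annotation, gene lengths and strand setting: not given in the sources used here. Column letters A and B could not be matched to the labels' replicate numbers.

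Ketotifen was compared with PBS by limma 3.58.1 under R 4.3.3, with trended variances, on log2(FPKM + 1). The test was two-sided and adjusted (Benjamini-Hochberg) over the 10586 genes averaging 1 FPKM or more. Fold changes on this scale understate those of low genes. Within each gene, FPKM values are whole multiples of 1 read. Relative depths of 1.06, 1.12 and 1.03 against PBS library A gave whole reads for 100.0% of tested genes (rounding error under 0.05 reads at 9 decimals) and for 0 of 300 decoys. A factor common to a gene's 4 libraries can be missed. limma's voom was run on these reads. TMM scaling, planned for it, needs a package kept here to deposited counts, so median ratio and total read scaling replaced it after the data were seen. Promoters and positions are RefSeq's (GRCh38.p14), and overlapping genes were read from GENCODE.

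The members, the lists by role and the cell type lists were chosen with earlier results of these data known. The genes named are the 10, then in each list those called by limma or voom and the 2 with the smallest p, and the 3 nearest to DLL3. HES2, HES4, HES5, HEY2, HEYL, NOTCH4, RBPJ, CNTN1, DLK1, DLK2 and DNER were added after their values were seen. Some genes that the rule names are not reported here.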

Additional observations from a re-analysis of the deposited data

How the results depend on the processing

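The counts of called genes depended on the setting. Over all genes 1 was called higher and 12 lower at the main settings. With no filter 0 and 0 were called, with a minimum mean of 5 FPKM 15 higher, after median ratio scaling 1 lower and after quantile normalization 2 lower. Voom gave 393 and 239 with median ratio scaling and 355 and 377 with total read scaling. Both were chosen after seeing the data in place of TMM scaling, which is not reported. Leaving out 1 library gave 3 to 1061 higher and 7 to 875 lower, the most without PBS library A; the lone library of a group is then assumed to vary like the other pair. The column letters A and B were used as a replicate block, although nothing shows that they pair the libraries (correlation of deviations from the group means 0.10 across genes, for libraries A). With the replicate block 406 genes were called higher and 231 lower, and of the 10 genes none.

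Among the 10 genes, 0 were called higher and 0 lower at the main settings. Voom called 1 higher with either scaling, and with total read scaling 1 lower. Leaving out 1 library gave 0 to 2 higher, and the 2 are DLL3 and JAG2 without PBS library A. Of 109 values of the 8 tested genes under the alternatives, 101 kept their direction and side of the threshold, 5 passed it and 3 changed sign. The log2 change of NOTCH1 was -0.028 with equal library sums, and that of DLL4 0.0042 after median ratio scaling. Leaving out 1 library gave HES1 -0.57 to 0.013 and EGFL7 -0.031 to 0.094, and EGFL7 was -0.019 with equal library sums. The cause was not tested. DLL3's share of ligand FPKM was 52.6% with PBS and 52.1% with ketotifen. Depth limits NOTCH3, HES1 and HEY1, which had 28 to 85 reads per library.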

Other observations

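Ligands of Notch outside the DSL family were mostly at very low levels. EGFL7, a secreted protein reported to bind Notch, had 32.4 and 29.6 FPKM with PBS and 32.3 and 31.0 FPKM with ketotifen (limma adjusted p = 0.803). CNTN1 had 0.448 to 0.515 FPKM over the 4 libraries, and DLK1, DLK2 and DNER had 0 to 12 reads in each of them.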
